A study of Mus musculus with 2 samples.

Results

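Disease-associated microglia (DAM) were examined in single-nucleus RNA sequencing libraries of hippocampus from tau transgenic mice of 2 genotypes, which the study describes as littermates. A nucleus was counted as DAM when it carried at least 3 unique molecular identifiers (UMIs, each standing for 1 captured RNA molecule) summed over Itgax, Cst7, Gpnmb and Dkk2. It also had to pass a microglial gate and to hold fewer than 3 UMIs summed over the 7 interferon genes Ifit2, Ifit3, Rsad2, Cxcl10, Oasl1, Iigp1 and Isg15. The gate asked for at least 10 UMIs per 10000 summed over Inpp5d, Csf1r, Cx3cr1, Dock8, Runx1, Ly86 and Cd84, with ceilings per 10000 UMIs of 5 on the oligodendrocyte genes St18 and Prr5l, 10 on the astrocyte genes Gpc5 and Rfx4, and 5 on the border macrophage genes Mrc1 and F13a1. In all, 255 DAM nuclei were found among 1907 microglial nuclei and 20594 nuclei that passed the quality filter (no fewer than 600 UMIs and 300 genes, with mitochondrial transcripts capped at 5%). Of these, 150 came from the PS19 library and 105 from the PZKO library. Since the members were chosen by measured values of these nuclei, differences between DAM and other microglia are given below as a description, with no test.

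Microglia are the resident macrophages of the brain parenchyma. In models of amyloid and tau pathology a subset of them is known to lower homeostatic genes such as P2ry12, Tmem119 and Cx3cr1. That subset raises genes of phagocytosis, lysosomes and lipid metabolism, including Apoe, Lpl, Cst7 and Itgax, and its full form depends on the lipid receptor TREM2 and its adaptor TYROBP. Gpnmb encodes a transmembrane glycoprotein of lysosome-rich phagocytes, Itgax the integrin alpha X (CD11c), Cst7 the cysteine protease inhibitor cystatin F, and Dkk2 a secreted modulator of Wnt signaling.

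Both groups carried the human Tau P301S transgene (PS19), which is driven by the mouse prion promoter and so is expressed mainly in neurons. PS19 mice had intact Zbp1 (PS19+/- Zbp1+/+), and PZKO mice lacked Zbp1 (PS19+/- Zbp1-/-), which encodes an innate sensor of Z-form nucleic acids. All were males of 9 months, and there was 1 library per genotype, made per the study's methods from hippocampi pooled over 5 mice, while the extraction protocol describes separate handling of the animals. With 1 library per genotype, genotype and library cannot be told apart, no p-value was computed between them, and every interval below covers counting error only. No mice without the tau transgene entered the comparison.

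The PS19 library held 11469 barcodes with 116488513 UMIs, and the PZKO library held 10920 barcodes with 171167884 UMIs, against a loading target of 6000 nuclei. DAM nuclei had a median of 4072 UMIs in PS19 and 5956 in PZKO. Microglia below both cuts were called low microglia here because they held fewer than 3 UMIs of the rule genes and of the interferon genes (892 nuclei in PS19 and 691 in PZKO). Their medians were 3091 and 3882 UMIs. A deeper nucleus reached 3 UMIs of the rule genes more easily, so depth enters both the rule and the comparison between libraries. The libraries shared 47 barcodes, and 0 of these were DAM.

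A few DAM nuclei carried more UMIs of neuronal genes than of microglial genes, and those in PZKO also carried far more RNA than the others. In 10 of the 105 PZKO DAM nuclei and 1 of the 150 PS19 DAM nuclei, UMIs of 5 neuronal genes (Rbfox3, Syt1, Snap25, Grin2a and Camk2a) outnumbered those of the 7 microglial genes. The 10 PZKO nuclei held 16360 to 45980 UMIs each and together gave 32.6% of all UMIs in PZKO DAM, while the PS19 nucleus held 878 UMIs, or 0.143% of its group. Scrublet, a doublet caller, scored the filtered nuclei, and the highest scores were marked at an assumed rate of 0.8% per 1000 nuclei. The marked nuclei included 15 PZKO DAM nuclei and 0 PS19 DAM nuclei. Among low microglia, neuron-rich nuclei gave 19.4% of the UMIs in PS19 and 16.6% in PZKO. List medians are therefore given below with all nuclei and without these neuron-rich nuclei, which leaves 149 PS19 and 95 PZKO DAM nuclei. Where a gene has 1 value only, it is with all nuclei in the comparison with low microglia and without neuron-rich nuclei in the comparison between the libraries.

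**Figure D1:**
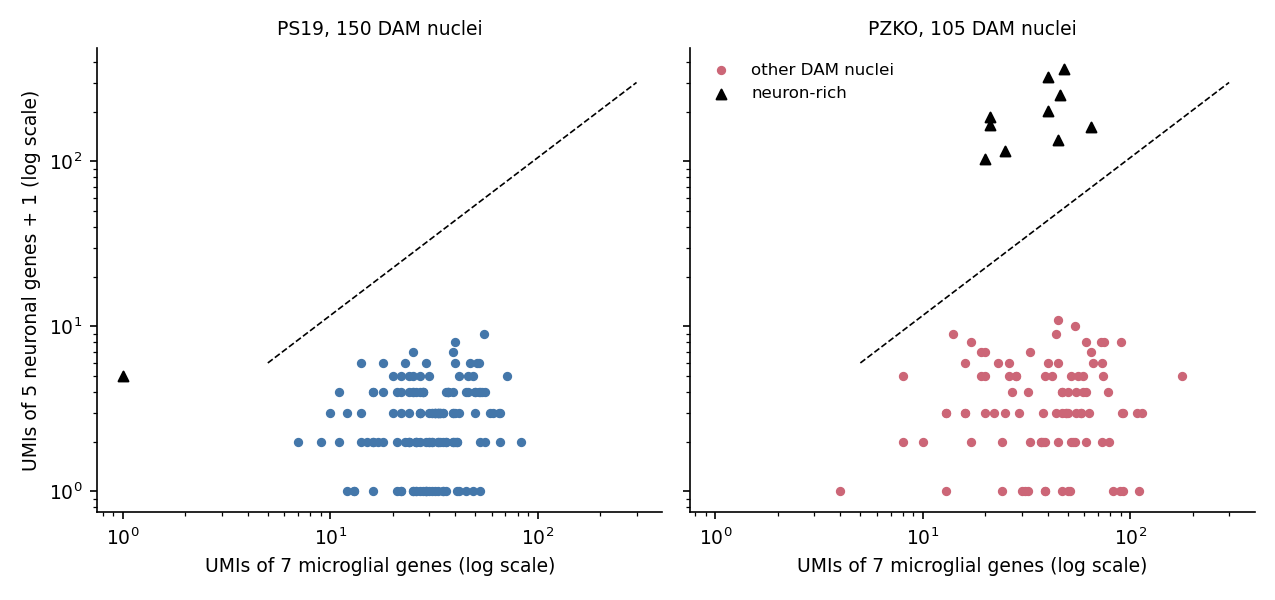
UMIs of 5 neuronal genes plus 1 (y axis, log scale) against UMIs of 7 microglial genes (x axis, log scale), 1 point per DAM nucleus, PS19 on the left and PZKO on the right; the dashed line marks equal UMIs. The 10 PZKO neuron-rich nuclei (black triangles) stand apart from the other 95, and PS19 has 1 such nucleus, of low depth.

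Zbp1, the gene deleted in PZKO, was sparse. It gave 109 UMIs over the PS19 nuclei that passed the quality filter and 50 over those of PZKO. With all nuclei, in low microglia it gave 31 UMIs in PS19 and 7 in PZKO, a log2 ratio of -2.12, whereas DAM held 5 UMIs in PS19 and 8 in PZKO. Of the 8 UMIs in PZKO DAM, 37.5% came from 1 nucleus. The deleted exons are not given in the sources used here, and 3′ counts from outside the deleted part check nothing, so PS19 and PZKO mean the libraries labelled so throughout. The necroptosis pathway was also thinly measured. Ripk1 and Ripk3, kinases of the pathway, gave 49 and 2 UMIs in PS19 DAM and 37 and 0 in PZKO DAM, and Mlkl, its pore-forming effector, gave 0 and 5. Casp8, the protease that restrains the pathway, gave 84 UMIs in each, and Irf3, a transcription factor of the interferon response kept on the same list, gave 48 and 43, in PS19 and PZKO in that order. These are raw counts out of 615122 UMIs in PS19 DAM and 808222 in PZKO DAM. Scaled to these totals, the log2 ratio of Casp8 in PZKO over PS19 was -0.39. Without neuron-rich nuclei it was 0.09, and both intervals covered 0.

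DAM made up 14.1% of microglia in PS19 (150 of 1066, exact 95% binomial interval 12.04 to 16.3%) and 12.5% in PZKO (105 of 841, 10.3 to 14.9%). The intervals overlapped at full depth. Without neuron-rich nuclei the shares were 14.9% (12.7 to 17.2%) and 12.03% (9.84 to 14.5%). Of all filtered nuclei, DAM made up 1.43% and 1.04%. As a measure of background, oligodendrocyte nuclei, which should lack the rule genes, reached 3 rule UMIs in 2 of 2569 nuclei in PS19 (0.0779%, median depth 3490 UMIs) and in 2 of 2353 in PZKO (0.085%, 4437 UMIs).

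The comparison of shares depended on depth. After each microglial nucleus was thinned to 1500 UMIs, which left out 95 shallower nuclei in PS19 and 42 in PZKO, DAM made up 6.18% (60 of 971, 4.75 to 7.88%) in PS19 and 3.13% (25 of 799, 2.03 to 4.58%) in PZKO. Over 20 draws the thinned share lay between 5.56 and 6.69% in PS19 and between 2.38 and 3.63% in PZKO, so the draws did not overlap. With the cut set at 2 UMIs after thinning, the shares were 12.4% and 6.63%. Without thinning, the result turned on how the cut was set and which nuclei were kept. With the cut set at 5 rule UMIs per 10000 UMIs, DAM made up 19.7% (17.4 to 22.2%) in PS19 and 12.7% (10.5 to 15.2%) in PZKO. Among microglial nuclei of 2500 to 7500 UMIs, a window chosen after seeing the data, the shares were 19.1% (16.3 to 22.2%) and 13.3% (10.7 to 16.3%), with intervals that just touched. Raw cuts of 2 and of 5 UMIs gave overlapping intervals, as the cut of 3 did. Under a stricter nucleus filter (no fewer than 1000 UMIs and 500 genes, with mitochondrial UMIs capped at 1%) the order of the libraries turned, with 13.9% (11.5 to 16.6%) in PS19 and 14.7% (12.05 to 17.6%) in PZKO, and the intervals overlapped. These values compare the libraries and not the genotypes.

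**Figure D2:**
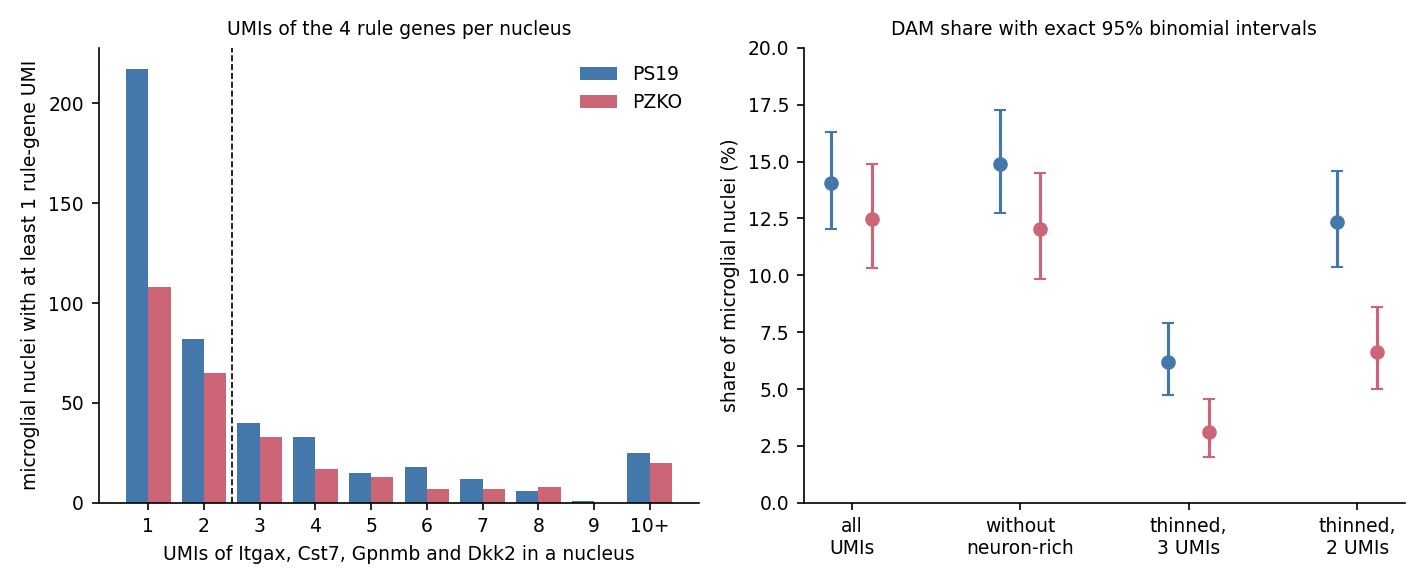
Left, number of microglial nuclei (y axis) by UMIs of the 4 rule genes (x axis; nuclei with 0 are not drawn, and those above the interferon cut are left out), with the DAM cut as a dashed line. Right, DAM share of microglia (y axis, percent) in PS19 and PZKO with exact 95% binomial intervals, which overlap with all UMIs (14.1 and 12.5%) and do not after thinning to 1500 UMIs (6.18 and 3.13% at 3 UMIs).

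The cut fell on a continuous slope. In PS19, 82 nuclei had exactly 2 rule UMIs and 40 had exactly 3, and in PZKO the numbers were 65 and 33. Nuclei just inside the cut in PS19 held 64 Itgax, 25 Gpnmb, 19 Cst7 and 12 Dkk2 UMIs, and those just outside held 91, 21, 39 and 13. In PZKO the nuclei at 3 UMIs held 59 Itgax, 17 Gpnmb, 16 Cst7 and 7 Dkk2 UMIs, and those at 2 held 79, 13, 30 and 8. The median DAM nucleus carried 5 rule UMIs in both libraries, and the highest carried 52 in PS19 and 27 in PZKO.

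DAM were not uniform in the genes that defined them. Itgax was found in 120 of 150 PS19 DAM nuclei (80%) and in 79 of 105 PZKO DAM nuclei (75.2%). Gpnmb was found in 46.7% of DAM in each library, Cst7 in 37.3 and 36.2%, and Dkk2 in 30% in PS19 and 22.9% in PZKO. By comparison, oligodendrocyte nuclei carried Itgax in 0.272 and 0.85%, Gpnmb in 1.6 and 1.06%, Cst7 in 1.21 and 0.935%, and Dkk2 in 0.117 and 0.085%. All 4 genes were present in 10 PS19 nuclei and in 1 PZKO nucleus, while 51 PS19 and 34 PZKO nuclei carried only 1 of them. Gpnmb was concentrated in few nuclei, since 1 nucleus gave 10.5% of its 410 UMIs in PS19 and 1 gave 8.7% of its 289 UMIs in PZKO.

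The promoters of the 4 rule genes and of the 15 leading genes named in the comparison with low microglia were searched on both strands for 3 short motifs, chosen after the gene values were seen, since these genes were high in the same nuclei. RefSeq windows on GRCm38.p6 (mm10), from 250 bases before to 50 after the start, were matched for 15 of the 19 genes, giving 17 windows. TGACTCA, the AP-1 type element, was present in 2 of the 17, those of Gpnmb and Itgax, against 5.2% of 32851 windows of the same length. GAGGAAG, a purine-rich element read by ETS factors such as PU.1, was present in 4 (Alcam, Igf1, Ikbke and Spp1) against 13.6% of all windows. CACGTG, the E-box read by MITF and TFEB, was present in 0 against 7.15%. The windows of Gpnmb (chr6:49036268-49036567, plus strand) and Itgax (chr7:128129300-128129599, plus strand), the genes that gave most of the UMIs behind the DAM rule, are shown with the TGACTCA or TGAGTCA match in capitals. The match began at base 259 of the Gpnmb window and at base 195 of the Itgax window, counted from 1 at the left end. A match describes the letters only and is not a shown binding site.
Gpnmb: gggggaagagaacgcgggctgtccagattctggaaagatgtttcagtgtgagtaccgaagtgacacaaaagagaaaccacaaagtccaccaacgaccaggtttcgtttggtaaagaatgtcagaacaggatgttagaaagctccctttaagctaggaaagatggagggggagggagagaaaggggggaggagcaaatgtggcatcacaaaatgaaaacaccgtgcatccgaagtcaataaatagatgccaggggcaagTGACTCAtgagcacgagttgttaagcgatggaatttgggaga
Itgax: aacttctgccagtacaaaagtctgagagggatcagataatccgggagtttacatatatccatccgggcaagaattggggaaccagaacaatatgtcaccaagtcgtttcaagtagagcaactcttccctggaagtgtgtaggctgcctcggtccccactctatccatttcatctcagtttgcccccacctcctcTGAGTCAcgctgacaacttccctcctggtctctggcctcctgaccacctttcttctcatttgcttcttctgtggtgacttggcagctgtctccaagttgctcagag

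Markers of other cells were checked in DAM before the comparison with low microglia. Of 8 perivascular macrophage markers, Cd163, Lyve1, Cbr2, Pf4 and Clec10a were at 0 UMIs in DAM of both libraries, and the list summed to 333 in PS19 and 257 in PZKO in CPM (summed UMIs of the genes per 1000000 UMIs of the same nuclei), mostly from Ms4a7. Of 7 monocyte and neutrophil markers, 4 were at 0 in PS19 DAM and 5 in PZKO DAM, Plac8, S100a8 and S100a9 in both, and the list summed to 11.4 and 27.2 CPM, mostly from the integrin gene Itgal. Of 7 T cell markers, 6 were at 0 in PS19 DAM and 4 in PZKO DAM, Cd3e, Cd3g and Themis in both. That list summed to 14.6 and 48.3 CPM, mostly from Bcl11b, which neurons also express, and to 14.7 and 18.4 without neuron-rich nuclei. Skap1 and Cd247 gave 1 UMI each in PZKO DAM. The 7 excitatory neuron markers summed to 346 CPM in PS19 DAM and 2684 in PZKO DAM, and to 345 and 380 without neuron-rich nuclei. The 7 oligodendrocyte markers, led by Mbp, summed to 884 CPM in PS19 DAM and 506 in PZKO DAM, or 884 and 626 without neuron-rich nuclei, and to 1118 and 865 in low microglia without them. Mbp, a myelin gene, was lower in PZKO DAM, at a log2 ratio of PZKO over PS19 of -0.31 without neuron-rich nuclei, with an interval below 0. The 6 astrocyte markers summed to 849 and 815 CPM in DAM. Ttr, the thyroxine carrier made by choroid plexus, gave 377 UMIs in PS19 DAM and 47 in PZKO DAM, or 613 and 58.2 CPM. It was nearly as unequal in low microglia (788 and 96.2 CPM). If all Ttr were free RNA with the profile of the barcodes under 600 UMIs, such RNA would make up 10.0% of the UMIs of DAM in PS19 and 1.42% in PZKO, and 12.9 and 2.36% in low microglia. Values after subtraction of that profile are given beside the results they bear on.

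DAM differed from the low microglia of the same library in a set of genes shared by both libraries. Among 6771 genes with at least 100 UMIs over DAM and low microglia in each library, 45 (0.665%) were at least 2-fold higher in CPM in DAM in both libraries, and 38 (0.561%) were at least 2-fold lower. Without neuron-rich nuclei, 63 of 5770 genes (1.09%) were higher and 55 (0.953%) were lower. The 15 that stood highest by the interval bound nearest 0 were Atp6v0d2, Mamdc2, Myof, Ms4a7, Spp1, Colec12, Fam20c, Lilr4b, Ikbke, Igf1, Ddhd1, Alcam, Lilrb4a, Mdfic and Lyz2. None of these was used by the rule, but the rule chose nuclei on this contrast, so the count is a description.

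Atp6v0d2, a subunit of the lysosomal proton pump typical of osteoclasts and phagocytes, led the list. It gave 181 UMIs in PS19 DAM and 136 in PZKO DAM (294 and 168 CPM) against 17.6 and 8.5 CPM in low microglia. The log2 ratios of DAM over low microglia were 4.06 in PS19 and 4.31 in PZKO, or 3.88 and 4.63 without neuron-rich nuclei. Myof, encoding the membrane repair protein myoferlin, had ratios of 2.67 and 2.83, and Mamdc2, encoding a secreted proteoglycan, had 3.69 and 3.20. The ranking took genes that were high in both libraries, so that likeness between the libraries follows from the choice. Ms4a7, encoding a tetraspan membrane protein of macrophages, had ratios of 2.36 and 3.09.

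**Figure D3:**
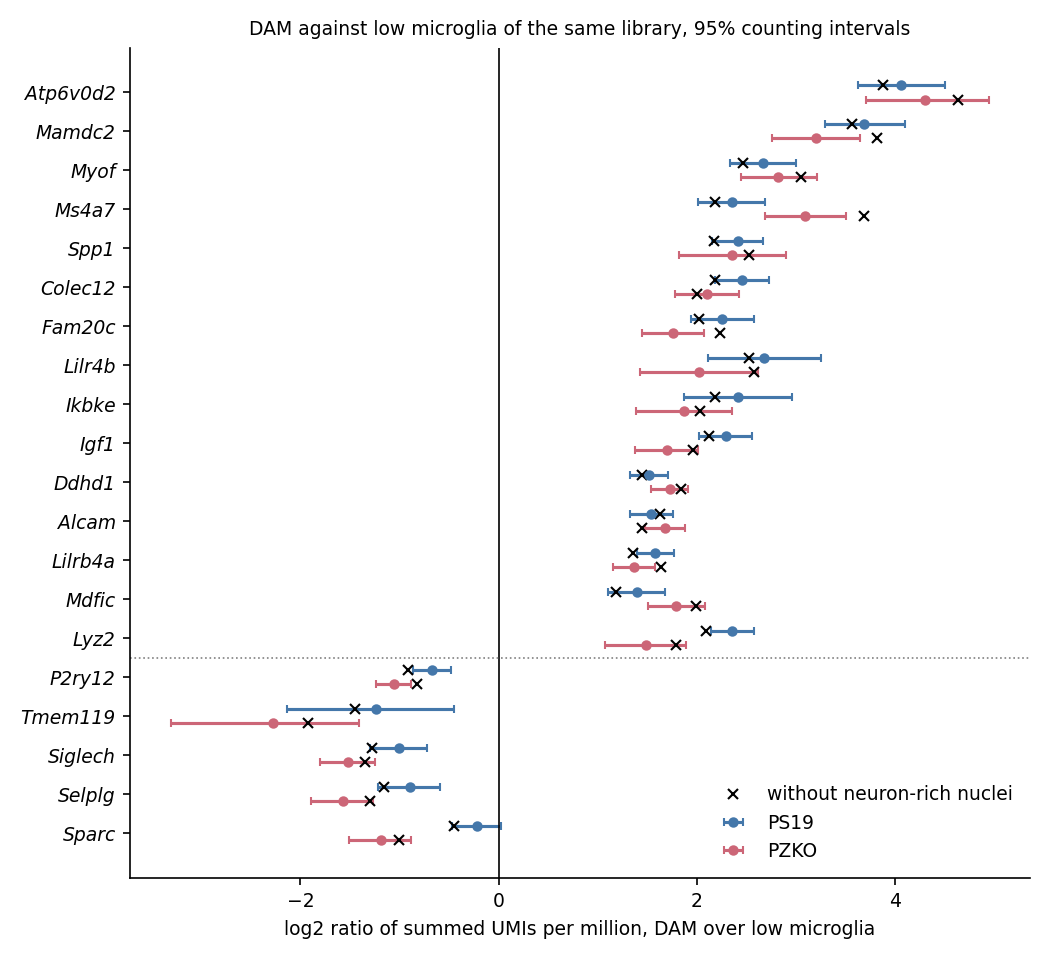
Log2 ratio of summed CPM in DAM over low microglia (x axis) for the 15 leading genes and 5 homeostatic genes (y axis), PS19 and PZKO, with exact conditional 95% counting intervals and crosses for the values without neuron-rich nuclei. The 15 leading genes were ranked by this ratio and so lie above 0 in both libraries, and the 5 homeostatic genes, picked for the plot from 14 measured, lie below 0, the interval of Sparc in PS19 reaching 0; Tgfbr1, Fcrls and Entpd1, not drawn, lie above 0 in PS19.

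Genes known for DAM that the rule did not use, 45 in all by role, were for the most part higher in DAM. Of the 35 with enough UMIs, 9 were at least 2-fold higher in both libraries, against 0.665% of all genes, and the median log2 ratio was 0.93 in PS19 and 0.49 in PZKO (0.76 and 0.75 without neuron-rich nuclei), against 0.02 and -0.06 over all genes. Among 12 receptors and surface proteins the medians were 0.89 in PS19 and 0.42 in PZKO, but 0.63 and 0.68 without neuron-rich nuclei, so the order of the libraries turned on these nuclei. Lilrb4a, an inhibitory receptor for APOE and other ligands, had ratios of 1.58 and 1.37, but its reads may be shared with its near copy Lilr4b (2.68 and 2.03). Ank, a pyrophosphate transporter, had 1.21 and 0.51, Axl, a receptor tyrosine kinase for apoptotic cells, had 1.12 and 0.58, and Cd9, a tetraspanin, had 0.63 and 0.18. Without neuron-rich nuclei these were 1.12 and 0.77 for Ank, 0.88 and 0.87 for Axl, and 0.41 and 0.45 for Cd9. Trem2 had a ratio of 0.79 in PS19 and -0.07 in PZKO, and its adaptor Tyrobp 0.87 and -0.22. Without neuron-rich nuclei these became 0.52 and 0.19 for Trem2 and 0.59 and 0.01 for Tyrobp.

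Secreted factors had a higher median ratio of DAM over low microglia than the receptors and the lipid genes. The median log2 ratio of 11 measured secreted factors was 1.43 in PS19 and 0.98 in PZKO, and 1.21 and 1.27 without neuron-rich nuclei, again with the order turned. Spp1, encoding osteopontin, had ratios of 2.41 and 2.36, and Igf1, the growth factor, had 2.29 and 1.70. Lyz2, encoding lysozyme, had 2.36 and 1.49, and Csf1, the ligand of the receptor CSF1R, had 1.43 and 0.66. Without neuron-rich nuclei these were 2.17 and 2.53 for Spp1, 2.12 and 1.96 for Igf1, 2.10 and 1.79 for Lyz2, and 1.21 and 0.96 for Csf1. Spp1 was uneven among DAM, with 17.3% of its 249 UMIs in 1 PS19 nucleus and 26.5% of its 68 UMIs in 1 PZKO nucleus. Serpine2, a serine protease inhibitor, had ratios of 0.23 and -0.29, and these became -0.01 and -0.04 without neuron-rich nuclei. The chemokine gene Ccl4 gave 64 UMIs from 17 PS19 DAM nuclei and 5 UMIs from 5 PZKO DAM nuclei. It was named after its values were seen.

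Most lipid handling genes were also higher in DAM, with medians of 0.90 in PS19 and 0.41 in PZKO over 12 genes, and a smaller gap of 0.75 and 0.66 without neuron-rich nuclei. Intervals lay above 0 for 11 in PS19 and 6 in PZKO, against 15.8 and 13.2% of all genes, and below 0 for 2 in PZKO. Without neuron-rich nuclei 10 lay above 0 in each library, against 11.8 and 12.1% of all genes. Apoe, the main lipid carrier of the brain, gave 3674 UMIs in PS19 DAM and 1189 in PZKO DAM. In CPM this was 5973 against 2207 in low microglia in PS19 and 1471 against 1046 in PZKO, so that the log2 ratio was 1.44 (interval 1.38 to 1.49) in PS19 and 0.49 (0.40 to 0.59) in PZKO. Without neuron-rich nuclei the ratio was 1.18 in PS19 and 0.75 in PZKO, and after ambient subtraction 1.73 and 0.55. Acaca, encoding the rate-limiting enzyme of fatty acid synthesis, had ratios of 1.13 and 1.08, and Abca1, a cholesterol exporter, 0.64 and 0.11. Lpl, encoding lipoprotein lipase, had 1.53 and 0.76. Lpcat2, an enzyme of phospholipid remodeling, was the only one of the 12 below 0 in both libraries, at -0.12 and -0.35 (-0.37 and -0.12 without neuron-rich nuclei).

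Lysosomal genes were higher in PS19 DAM but varied in PZKO DAM. Of 21 measured, 19 had intervals above 0 in PS19 and 6 in PZKO, against 15.8 and 13.2% of all genes. Without neuron-rich nuclei the numbers were 16 and 9, against 11.8 and 12.1% of all genes. The medians were 0.63 and 0.06, or 0.45 and 0.23 without those nuclei. The proteases Ctsd (cathepsin D) and Ctsb (cathepsin B) had ratios of 1.05 and 0.95 in PS19 and 0.25 and 0.34 in PZKO. Ctss (cathepsin S) had 0.54 and -0.35. The lysosomal membrane genes Cd68 and Lamp1 had 1.16 and 0.55 in PS19 and 0.26 and -0.16 in PZKO, and Mpeg1, encoding the pore-forming perforin-2, had 0.94 and -0.02. Without neuron-rich nuclei the PZKO values of Lamp1 and Mpeg1 were 0.05 and 0.22, and the ratios of Ctss were 0.28 and -0.11.

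The 9 measured complement genes had medians of 0.05 in PS19 and -0.44 in PZKO, or 0.02 and -0.21 over 8 genes without neuron-rich nuclei. Intervals lay above 0 for 4 in PS19 and 0 in PZKO, against 15.8 and 13.2% of all genes. They lay below 0 for 2 and 6, against 15.3 and 16%. Among them C1qa, C1qb and C1qc, which encode the subunits of C1q, had opposite signs in the libraries. Their ratios were 0.78, 0.71 and 0.57 in PS19 and -0.43, -0.33 and -0.31 in PZKO, or 0.52, 0.47 and 0.31 and -0.19, -0.09 and -0.03 without neuron-rich nuclei, where the 3 PZKO intervals covered 0. The 12 measured mitochondrially encoded genes also had opposite signs, with a median of 0.37 in PS19 and -0.61 in PZKO (0.22 and -0.50 without neuron-rich nuclei). For 76 ribosomal protein genes the medians were 0.25 and -0.28, or 0.08 and -0.16 without neuron-rich nuclei. Of these 76, 19 had intervals above 0 in PS19 and 28 below 0 in PZKO, against 15.8 and 16% of all genes. Without neuron-rich nuclei the numbers were 8 and 8, near the 11.8 and 12.1% of all genes. Whether the content of cytoplasmic RNA had a part in the lysosomal and complement values was not tested.

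Homeostatic genes were lower in DAM. Of 14 measured, 8 had intervals below 0 in PS19 and 14 in PZKO, against 15.3 and 16% of all genes, and 11 and 13 without neuron-rich nuclei, against 11.6 and 12.1%. Among them 3 were at least 2-fold lower in both, against 0.561% of all genes (5 without neuron-rich nuclei, against 0.953%), and the median ratio was -0.58 and -1.07 (-0.83 and -0.91). P2ry12, the purinergic receptor that guides microglial processes, gave 411 CPM in PS19 DAM against 654 in low microglia, and 369 against 769 in PZKO, ratios of -0.67 and -1.06 (-0.92 and -0.83 without neuron-rich nuclei). Siglech, a sialic acid binding lectin, had -1.01 and -1.52 (-1.28 and -1.35 without them), Selplg, a selectin ligand, -0.90 and -1.57, and Tmem119, a microglial membrane protein, -1.23 and -2.28 from 14 and 11 UMIs in DAM. Not all members shared this. Tgfbr1, the type I receptor for TGF-beta, had 0.35 and -0.18 (0.11 and 0.08 without neuron-rich nuclei), Fcrls, an Fc receptor-like scavenger gene, 0.35 and -0.59 (0.11 and -0.33), and Entpd1, the ectonucleotidase CD39, 0.15 and -0.45 (-0.11 and -0.20).

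The 13 measured transcription factors went both ways, with medians of 0.26 in PS19 and -0.32 in PZKO (0.04 and -0.05 over 11 without neuron-rich nuclei). Intervals lay above 0 for 5 in PS19 and 3 in PZKO, against 15.8 and 13.2% of all genes. They lay below 0 for 1 and 7, against 15.3 and 16%. Mitf, a regulator of lysosomal genes, and Hif1a, a regulator of the response to low oxygen, were among the 5 above 0 in both libraries. Mitf gave 951 UMIs in 143 PS19 DAM nuclei and 1046 in 102 PZKO DAM nuclei, with ratios of 0.84 and 0.67 (0.63 and 0.93 without neuron-rich nuclei). Hif1a had 1.05 and 0.81. The microglial factors Mef2c and Mef2a had 0.03 and 0.26 in PS19 and -0.35 and -0.27 in PZKO, and -0.14 and 0.04 in PS19 and -0.27 and -0.05 in PZKO without neuron-rich nuclei. Of the antigen presentation genes, Cd74, the invariant chain, had 1.02 and 0.44, H2-D1, a class I heavy chain, 0.87 and 0.13, B2m, its light chain, 0.84 and -0.06, H2-K1 0.48 and 0.41, and Cd86, a costimulatory ligand, 0.08 and -0.31. Without neuron-rich nuclei they had 0.77 and 0.76 for Cd74, 0.62 and 0.41 for H2-D1, 0.59 and 0.21 for B2m, 0.23 and 0.72 for H2-K1, and -0.18 and 0.01 for Cd86, so the order of H2-K1 between the libraries and the signs of B2m in PZKO and of Cd86 turned.

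The 10 genes lower in DAM by the same ranking were Skap1, Mecom, Gm2682, Cdh13, Adarb2, Itga9, Bank1, Ntng1, Csmd3 and 8030442B05Rik. Several mark other cells. Skap1, an adaptor of T cells, gave 154 and 188 UMIs in low microglia and 0 and 1 in DAM, and Mecom, an endothelial transcription factor, gave 118 and 219 against 0 and 1. The neuronal genes Adarb2 and Ntng1 gave 4 UMIs each in PS19 DAM against 783 and 383 in low microglia. These are counts with all nuclei. Without neuron-rich nuclei Cdh13, Adarb2 and Ntng1 left the 10, and Htr2c, Pdzd2 and Cacnb2 entered.

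Within microglia, several of these genes followed the number of rule UMIs by steps. The steps split the same nuclei by the same UMIs that set the DAM cut. For genes ranked by DAM over low microglia, a rise across that cut therefore follows from the choice of genes. Nuclei were split into those with 0, 1 to 2, 3 to 4, 5 to 9 and 10 or more rule UMIs after neuron-rich nuclei were left out, and the last class held 25 PS19 and 17 PZKO nuclei. Atp6v0d2 went from 7.87 to 39.2, 158, 209 and 791 CPM in PS19 and from 4.19 to 20.3, 82.0, 231 and 592 in PZKO. P2ry12 went from 870.2 to 631, 494, 405 and 226 in PS19 and from 982 to 669, 603, 520.02 and 183 in PZKO. Siglech went down along the same steps in both libraries, from 510 to 69.6 and from 556 to 64.6. Spp1, Igf1 and Ms4a7 went up at every step in PS19 but not in PZKO. There Igf1 went from 38.2 to 122, 82.0, 395 and 355 CPM, Ms4a7 from 20.4 to 25.05, 164, 404 and 312, and Spp1 from 12.04 to 31.02, 28.7, 164 and 161.

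Apoe followed the steps in both libraries but over different ranges. It went from 2034 CPM in nuclei with no rule UMI to 11916 in those with 10 or more in PS19, and from 998 to 2874 in PZKO. Before the last class the values were 3490, 4142 and 4952 in PS19 and 1594, 1693 and 1916 in PZKO. In the last PS19 class, Lyz2 reached 1766 CPM and Spp1 1000.2, against 388 and 161 in PZKO, whereas Myof reached 583 in PS19 and 699.8 in PZKO. C1qa went up in PS19, from 615 to 1400.3, while in PZKO it was 407 in the first class, 415 in the next and 312 in the last. The classes also differed in depth, with medians between 2846 and 4521 UMIs in PS19 and between 3692.5 and 6026 in PZKO, and the part of depth in these values was not tested.

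**Figure D4:**
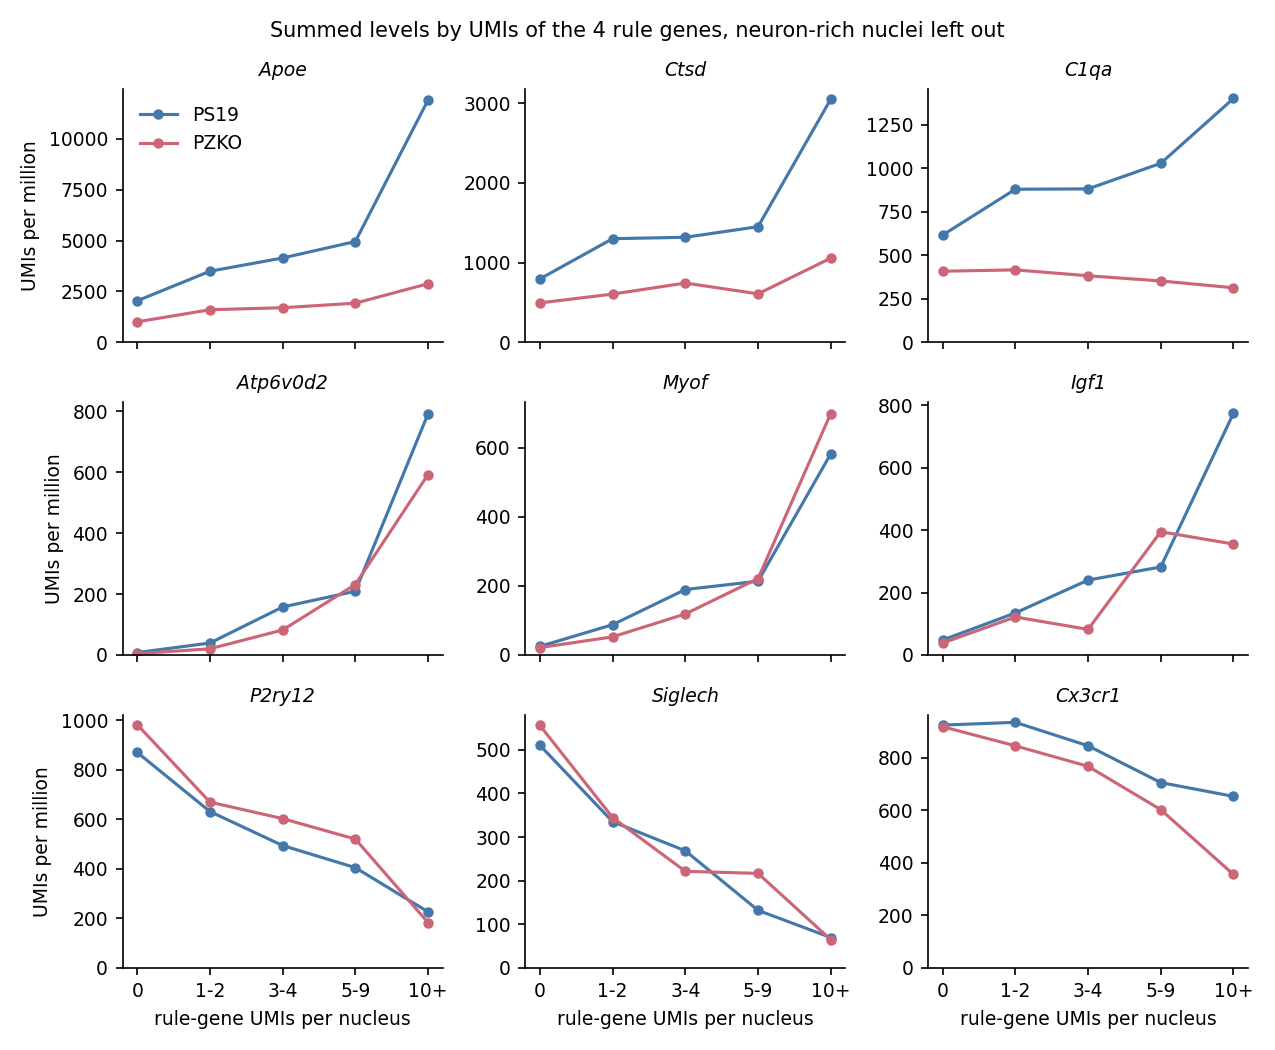
Summed level in CPM (y axis, from 0) of 9 genes by the number of rule-gene UMIs in the nucleus (x axis, 5 classes) in PS19 and PZKO, without neuron-rich nuclei; no error is drawn, and the highest class holds 25 PS19 and 17 PZKO nuclei. Atp6v0d2 and Myof go up and P2ry12 and Siglech go down in both libraries, while C1qa goes from 615 to 1400.3 in PS19 and from 407 to 312 in PZKO. Atp6v0d2, Myof and Igf1 were ranked by DAM over low microglia in these data, so their rise across the DAM cut follows from that choice.

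DAM with a Gpnmb UMI differed from DAM without one in several genes. Gpnmb is itself a rule gene, so this split is not independent of the steps by rule UMIs above. The split, made after the values were seen, gave 69 nuclei with Gpnmb and 80 without in PS19, at median depths of 4074 and 4082.5 UMIs, and 44 with and 51 without in PZKO, at 5155 and 5984 UMIs. Atp6v0d2 was 575 CPM with Gpnmb against 54.5 without in PS19, and 433 against 68.0 in PZKO. Igf1 was 511 against 221 in PS19 and 488 against 64.8 in PZKO, Myof 486 against 87.7 and 479 against 87.4, and Ms4a7 395 against 93.8 and 501 against 113. In the other direction, P2ry12 was 293 against 514 and 399 against 576. The DAM genes Lpl, Spp1 and Trem2 did not differ alike in the libraries. Lpl was 363 against 357 CPM in PS19 and 221 against 327 in PZKO. Spp1 was 564 against 263 and 106 against 100, and Trem2 was 419 against 372 and 255 against 291. The other rule genes did not all go one way. Itgax was 377 against 759 in PS19 and 293 against 541 in PZKO, and Cst7 127 against 185 and 42.4 against 126, while Dkk2 was 388 against 182 and 115 against 77.7. A nucleus without Gpnmb had to reach the cut through these 3 genes, so their values follow in part from the rule. Axl was 296 against 315 in PS19 and 250.4 against 330.3 in PZKO, and C1qa was 1029 against 1032 and 327 against 382.

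The second question of the design was how DAM of the PZKO library compared with DAM of the PS19 library. Among 3308 genes with at least 100 UMIs over DAM of both, 120 (3.63%) were at least 2-fold lower in PZKO DAM and 312 (9.43%) at least 2-fold higher. Without neuron-rich nuclei, 38 of 2691 genes (1.41%) were lower and 18 (0.669%) were higher, and the median of all genes moved from -0.15 to 0.02 on the log2 scale. Values without neuron-rich nuclei are therefore given first below.

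The 4 rule genes were lower in PZKO DAM. Their log2 ratios of PZKO over PS19 were -0.43 for Itgax (interval -0.67 to -0.19), -0.55 for Gpnmb (-0.78 to -0.32), -0.81 for Cst7 (-1.34 to -0.30) and -1.56 for Dkk2 (-2.04 to -1.10). With all nuclei they were -0.91, -0.90, -1.34 and -2.02. In low microglia, which hold at most 2 rule UMIs each, the ratios without neuron-rich nuclei were -0.50, -0.95, -0.91 and -1.23. As these genes chose the nuclei, these values describe the rule. The microglial genes of the gate were near even, with Inpp5d (a lipid phosphatase) at -0.01, Csf1r (the receptor for CSF1) at -0.03, Runx1 at 0.02 and Cd84 at -0.04, and Dock8 at -0.14, while Cx3cr1 (the fractalkine receptor) was at -0.26 and Ly86 at 0.43. With all nuclei the 7 lay between -0.75 (Cx3cr1) and -0.03 (Ly86).

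The further DAM genes had a median ratio of -0.26 over 33 genes (-0.74 with all nuclei). Their median in low microglia of the same libraries was -0.23, or -0.19 with all nuclei, and in the oligodendrocyte reference -0.20. Of the 33, 15 had intervals below 0 and 1 above, against 11 and 11.4% of all genes (27 and 0 with all nuclei, against 27.1 and 14.2%). Of these genes 3 were at least 2-fold lower against 1.41% of all genes (10 against 3.63% with all nuclei), with none at least 2-fold higher. The 3 were Spp1 (-1.97), Lyz2 (-1.88) and Apoe (-1.57), with intervals of -2.41 to -1.54, -2.25 to -1.53 and -1.67 to -1.47. In low microglia Spp1 stood at -2.32, Lyz2 at -1.58 and Apoe at -1.14. In oligodendrocyte nuclei they stood at -1.49, -1.60 and -0.88. A lower level of these RNAs was thus measured in all 3 groups of nuclei. With all nuclei the DAM ratios were -2.27 for Spp1, -2.36 for Lyz2 and -2.02 for Apoe, and after ambient subtraction they were -2.34, -2.47 and -2.08. They were smaller under the stricter nucleus filter, at -1.82 for Spp1, -0.73 for Lyz2, which is less than 2-fold, and -1.16 for Apoe.

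Most other DAM genes differed less. Colec12, a scavenger receptor, stood at -0.79 (interval -1.12 to -0.46), Trem2 at -0.52 (-0.82 to -0.22), Tyrobp at -0.83 (-1.27 to -0.40) and Igf1 at -0.52 (-0.84 to -0.20). For Trem2 and Tyrobp the ratios in low microglia were -0.19 and -0.24. Csf1 stood at -0.35, Cd9 at -0.26 and Lilrb4a at -0.23. The intervals of Ank (-0.12), Axl (-0.05), Cadm1 (0.13), Abca1 (-0.10), Acaca (0.14), Mamdc2 (-0.20), Myof (-0.08), Fam20c (0.16) and Ms4a7 (0.27) covered 0. For Ms4a7 the interval ran from -0.07 to 0.61 in DAM, and the ratio in low microglia was -1.23. With all nuclei Trem2 stood at -1.01, Tyrobp at -1.30 and Igf1 at -0.91. The ratios of Ank (-0.51), Axl (-0.51), Abca1 (-0.54), Mamdc2 (-0.72), Myof (-0.46) and Fam20c (-0.35) then had intervals below 0, and Acaca (-0.18) and Ms4a7 (-0.25) turned below 0 with intervals that covered it.

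Most lysosomal genes and the C1q genes were lower in PZKO DAM. The 19 lysosomal genes had a median of -0.73 (-1.18 with all nuclei), with 16 intervals below 0 and 0 above, where 11% of all genes had intervals below 0. Their median was -0.52 in low microglia and -0.48 in oligodendrocyte nuclei. Cd68 stood at -1.48 (interval -1.93 to -1.05), Ctsd at -1.18, Lamp1 at -0.94, Ctss at -0.91, Mpeg1 at -0.82 and Ctsb at -0.74. Of 7 complement genes, 4 had intervals below 0 and 0 above, and the highest stood at -0.19. The median was -0.85 in DAM (-1.25 with all nuclei), -0.33 in low microglia and -1.06 in oligodendrocyte nuclei. C1qa stood at -1.52 (-1.76 to -1.29), C1qb at -1.05 and C1qc at -0.93. In low microglia these 3 stood at -0.81, -0.48 and -0.59, and in oligodendrocyte nuclei at -1.12, -1.06 and -1.16. The 10 mitochondrially encoded genes had a median of -1.11 in DAM, -0.41 in low microglia and -0.64 in oligodendrocyte nuclei, and 49 ribosomal protein genes -0.59, -0.36 and -0.48. With all nuclei the DAM medians were -1.32 and -0.92. The median share of mitochondrial UMIs per nucleus was 0.510% in PS19 DAM and 0.344% in PZKO DAM. Whether the content of such RNA had a part in the lysosomal and complement values was not tested.

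**Figure D5:**
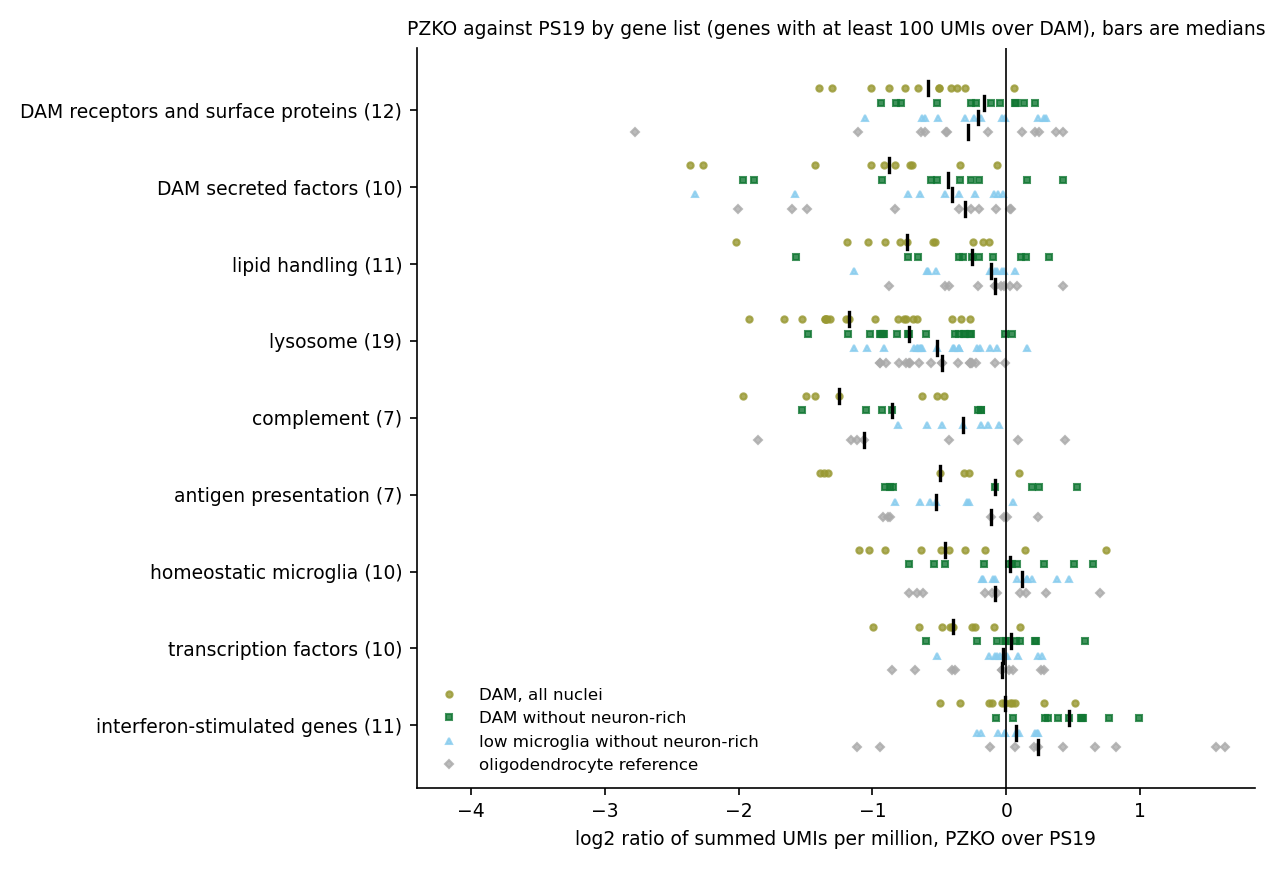
Log2 ratio of summed CPM, PZKO over PS19 (x axis), for the measured genes of 9 lists (y axis, number of genes in parentheses), in DAM with all nuclei, DAM without neuron-rich nuclei, low microglia without neuron-rich nuclei and oligodendrocyte nuclei; 1 point per gene, and black bars mark medians. Without neuron-rich nuclei the DAM median is -0.73 for the lysosome list, -0.85 for the complement list and 0.47 for the interferon-stimulated genes.

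Homeostatic genes went both ways between the libraries in DAM. Without neuron-rich nuclei 3 of 10 had intervals below 0 and 2 above, against 11 and 11.4% of all genes, and the ratios ran from -0.73 for Sparc, a matricellular protein gene, to 0.65 for Lrba, both named after their values were seen. The median was 0.03 without neuron-rich nuclei and -0.46 with them, so its sign turned on the 11 neuron-rich nuclei. P2ry12 stood at 0.28 (interval 0.03 to 0.53, and -0.16 with all nuclei), Tgfbr1 at 0.04, Entpd1 at -0.17 and Fcrls at -0.54 (-0.84 to -0.24). Transcription factors had a median of 0.03 (-0.40 with all nuclei), with Mitf at 0.21 and Hif1a at 0.22 (-0.26 and -0.24 with all nuclei) and Mef2a at -0.01. The 7 measured antigen presentation genes went both ways, with a median of -0.09 (-0.50 with all nuclei) and a highest ratio of 0.53. Of these, 3 had intervals below 0 and 1 above, against 11 and 11.4% of all genes. B2m stood at -0.90, H2-D1 at -0.87 and Cd74 at -0.84, while H2-K1 stood at 0.19 and Cd86 at 0.24 with intervals that covered 0. With all nuclei B2m stood at -1.36, H2-D1 at -1.33 and Cd74 at -1.39, and the signs of H2-K1 (-0.31) and Cd86 (-0.28) turned.

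Interferon-stimulated genes that were not part of the rule were higher in PZKO DAM once neuron-rich nuclei were left out. Of 26 such genes, 11 had enough UMIs, 7 of these had intervals above 0 and 0 below, against 11.4% of all genes above, and the median was 0.47, against 0.07 in low microglia, 0.23 in oligodendrocyte nuclei and 0.02 over all genes. Trim30a, a regulator of Toll-like receptor signaling, stood at 0.38 (interval 0.11 to 0.65) and Trim30d at 0.56 (0.22 to 0.91), or -0.11 and 0.06 with all nuclei. Ifi207 stood at -0.08 (-0.39 to 0.24). None of the 11 was at least 2-fold higher, against 0.669% of all genes. With all nuclei the median was -0.01 and no interval lay above 0. The rule removed nuclei with 3 or more UMIs of 7 interferon genes. In the 24 PS19 and 45 PZKO nuclei it removed, 7 and 10 carried 3 or more UMIs of the DAM rule genes.

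In other pathways few genes differed between the libraries without neuron-rich nuclei. The median was 0.10 over 10 genes of TGF-beta signaling, 0.08 over 11 genes of Alzheimer risk and -0.03 over 14 genes of migration and cytoskeleton. Of the TGF-beta genes, 0 had intervals below 0 and 1 above, Smad3, a transcription factor of the pathway, at 0.86 (0.73 with all nuclei). Of the risk genes, 1 had an interval below 0 and 0 above, Ms4a6d at -0.88 (-1.22 with all nuclei). Of the migration genes, 1 was below, the actin gene Actb at -0.50, and 1 above, Elmo1, a regulator of engulfment, at 0.19. These were named after their values were seen, and 11 and 11.4% of all genes had intervals below and above 0. With all nuclei the medians of the 3 lists were -0.32, -0.31 and -0.42. Intervals then lay below 0 for 3, 5 and 12 genes, against 27.1% of all genes. They lay above 0 for 1, 1 and 0, against 14.2%. Of 14 NF-kB and cytokine genes, 1 had enough UMIs for this comparison. The 12 proliferation genes summed to 43.9 CPM in PS19 DAM and 22.3 in PZKO DAM, and 0 of them had enough UMIs for this comparison.

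The 10 lowest genes in PZKO DAM with all nuclei were Ttr, Lyz2, Apoe, Spp1, C1qa, Gm19951, Cd68, Ctsd, mt-Atp6 and Cst3. Ttr stood at -3.02 without neuron-rich nuclei, against -3.06 in low microglia and -3.27 in oligodendrocyte nuclei. Cst3, encoding cystatin C, stood at -1.19, mt-Atp6 at -1.48 and the noncoding RNA Gm19951 at -2.18. In low microglia these 3 stood at -0.77, -0.39 and -1.27. With all nuclei mt-Atp6 stood at -1.69 and Gm19951 at -2.24. The ratio of mt-Atp6 was -0.58 under the stricter nucleus filter, whose cut on mitochondrial UMIs bears on this gene directly, and that of Gm19951 was -1.13 after ambient subtraction.

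The 10 highest genes in PZKO DAM were Dpp10, Galntl6, Nrg3, Csmd1, Mgat4c, Sgcz, Hs6st3, Agbl4, Ptprd and Trpm3, among them genes of neuronal synapses and axons such as Nrg3 and Ptprd. Dpp10, a subunit of neuronal potassium channels, gave 13 UMIs in PS19 DAM and 1792 in PZKO DAM, of which 1772 were in the 10 neuron-rich nuclei. Nrg3, a neuregulin, gave 13 and 1646, of which 1630 were in those nuclei. Without them the ratios were 0.80 for Dpp10 and 0.47 for Nrg3, with intervals that covered 0. For other genes of this list the ratios without neuron-rich nuclei are given next without intervals. Agbl4 stood at 2.63, Hs6st3 at 2.17, Csmd1 at 2.04, Sgcz at 1.40 and Ptprd at 0.94. Trpm3, an ion channel gene of neurons and choroid plexus, had a ratio of 6.37 with all nuclei and 5.73 (interval 4.84 to 6.80) without neuron-rich nuclei, but 0.13 without the nuclei marked by Scrublet and 2.09 with a microglial gate of 20 UMIs per 10000. Without neuron-rich nuclei it gave 472 UMIs in 11 PZKO DAM nuclei, of which 316 were in 1 nucleus and 147 in another.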

How the data were processed

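Single-nucleus 3′ RNA libraries of hippocampus, 1 per genotype, were analysed. The values are raw UMI counts per gene and nucleus as deposited by the authors. Per the labels they come from Cell Ranger 7.0.1 on mm10, while the file header names 8.0.1, and Seurat followed. The study's methods also name ambient RNA correction (SoupX), the nucleus filter used here and DoubletFinder. The deposited counts were whole numbers and held nuclei below that filter, so the filter had not been applied to them. Whether the other steps had been was not tested.

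Nuclei were selected by the rule given above, and no doublet caller was applied in the main results. The members and gene lists were chosen with earlier results of these data known. UMIs were summed over the nuclei of a state and library and divided by the summed total. Ratios carry exact conditional binomial 95% intervals (Clopper-Pearson) and shares exact binomial ones. These cover counting error only, since each genotype is 1 pool, and no p-value was computed. Where a pool held 0 UMIs, 3 counts took its place in the ratio, while the interval used the counts as they were. Levels in CPM were compared for genes with at least 100 UMIs over the pools compared (in each library for DAM against low microglia). Oligodendrocyte nuclei served as the reference that should lack microglial genes. The interval code was tested on simulated data.

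The genes named were those of the rule, Zbp1, the 15 genes higher and 10 lower in DAM by the interval bound nearest 0, the 10 lowest and 10 highest in PZKO DAM by the same measure, and the leading members of the lists. Python 3.11.15, numpy 2.4.6, scipy 1.17.1, pandas 2.3.3 and scanpy 1.11.5 were used. R 4.3.3 with edgeR 4.0.16 and DESeq2 1.42.0 gave alternative scaling factors only. Alternatives covered doublet removal with Scrublet, neuron-rich nuclei, the nucleus filter, each cut of the rule, depth, scaling, ambient subtraction and the UMI minimum. The depth window of 2500 to 7500 UMIs was chosen after seeing the data. Results for some genes are not reported here.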

Additional observations from a re-analysis of the deposited data

Results flagged for a closer look

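In 8 of the 65 genes named for this comparison the log2 ratio of DAM over low microglia was above 0 in PS19 and below 0 in PZKO with counting intervals on opposite sides of 0, and these differences between the libraries were not tested. Of all 6771 genes with enough UMIs, 519 (7.67%) had opposite signs in the libraries by this measure, in either direction. The ratios were 0.78 and -0.43 for C1qa, 0.71 and -0.33 for C1qb, 0.57 and -0.31 for C1qc, and 0.54 and -0.35 for Ctss, in PS19 and PZKO in that order. They were 0.35 and -0.59 for Fcrls, 0.35 and -0.18 for Tgfbr1, 0.26 and -0.27 for Mef2a, and 0.23 and -0.29 for Serpine2. Without neuron-rich nuclei none of the 8 kept intervals on opposite sides of 0.

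In 4 of the 58 genes named for the comparison between the libraries (187 of all 3308 genes with enough UMIs in DAM, 5.65%) the log2 ratio of PZKO over PS19 took opposite signs in DAM and in low microglia with counting intervals on opposite sides of 0, which was likewise not tested. It was 6.37 in DAM and -0.38 in low microglia for Trpm3, -0.51 and 0.19 for Ank, -0.43 and 0.10 for Tgfbr1, and -0.42 and 0.11 for Mef2a. Without neuron-rich nuclei the DAM intervals of Ank, Tgfbr1 and Mef2a covered 0.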

How the results depend on the processing

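With 1 library per genotype no replicate could be left out, and no paired analysis was possible because each genotype has 1 sample. Of 2432 values of 188 gene results under 13 alternatives, 1572 stayed within the counting interval of the value with all nuclei and 860 lay outside it. The UMI minimum cannot move a gene's own ratio and is left out of these numbers. In all, 182 values in 28 genes had another sign, and for 49 of these the interval with all nuclei had lain off 0. TMM factors changed 1 sign, the stricter nucleus filter 2, DESeq2 size factors 3, ambient subtraction 3 and the interferon ceiling 4, each from an interval that covered 0.

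The DAM share was 21.8% in PS19 and 20.2% in PZKO at 2 rule UMIs, 7.22 and 6.54% at 5, 6.18 and 3.13% after thinning, and 13.9 and 14.7% with the stricter nucleus filter, where the order of the libraries turned. It was 19.7 and 12.7% at 5 rule UMIs per 10000, and 19.1 and 13.3% in nuclei of 2500 to 7500 UMIs. The median of the further DAM genes over low microglia in PZKO was 0.82 at 5 rule UMIs and 0.95 at 5 per 10000. Their median ratio of PZKO over PS19 was -0.24 without Scrublet doublets, -0.26 without neuron-rich nuclei, -0.30 at 5 per 10000, -0.32 with a microglial gate of 20 per 10000, -0.41 as a mean over nuclei and -0.20 in the depth window. The homeostatic median was 0.063 without Scrublet doublets, 0.029 without neuron-rich nuclei and -0.022 with the gate of 20.

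Genes at least 2-fold lower in PZKO DAM numbered 40 without Scrublet doublets, 38 without neuron-rich nuclei, 65 with the stricter nucleus filter, 65 at 5 rule UMIs, 52 at 5 per 10000, 47 with the gate of 20, 67 as a mean over nuclei, 36 in the depth window, 601 at a minimum of 20 UMIs and 1523 with none. Those at least 2-fold higher numbered 10 without Scrublet doublets, 18 without neuron-rich nuclei, 102 at 5 rule UMIs, 73 at 5 per 10000, 54 with the gate of 20, 9 in the depth window, 1102 at a minimum of 20 UMIs and 2020 with none. Genes higher in DAM in both libraries numbered 78 at 5 rule UMIs, 77 at 5 per 10000, 72 as a mean over nuclei, 80 at a minimum of 20 UMIs and 265 with none. Genes lower in DAM in both numbered 18 at 2 rule UMIs, 98 at 5, 296 at 5 per 10000, 213 at a minimum of 20 UMIs and 246 with none.

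Signs that changed from an interval off 0 for PZKO over PS19 in DAM were as follows. Without Scrublet doublets the ratio was 0.092 for Tgfbr1, 0.033 for Mef2a, 0.27 for Mitf, 0.27 for Hif1a and 0.021 for Ifi207. Without neuron-rich nuclei it was 0.042 for Tgfbr1, 0.21 for Mitf and 0.22 for Hif1a. At 5 rule UMIs it was 0.13 for Ank and 0.023 for Mitf, and at 5 per 10000 it was 0.044 for Ank, 0.089 for Mitf, 0.23 for Hif1a and 0.026 for Ifi207. With the gate of 20 it was 0.15 for Mitf and 0.17 for Hif1a, and as a mean over nuclei 0.12 and 0.15. In the depth window it was 0.099 for Ank, 0.028 for Mef2a, 0.25 for Mitf and 0.30 for Hif1a.

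Signs that changed from an interval off 0 for DAM over low microglia in PS19 were those of Ntng1 (0.60 at 2 rule UMIs) and Serpine2 (-0.037 without Scrublet doublets, -0.011 without neuron-rich nuclei, -0.0105 with the gate of 20 and -0.0295 in the depth window). In PZKO, at 5 per 10000 the ratio was 0.20 for Serpine2, 0.14 for Ctss, 0.13 for Cd86, 0.12 for C1qa, 0.23 for C1qb, 0.16 for C1qc, 0.26 for Tgfbr1 and 0.079 for Mef2a. At 2 rule UMIs it was 0.62 for Cdh13 and 0.90 for Ntng1, and at 5 it was 0.026 for C1qc and 0.15 for Tgfbr1. Without Scrublet doublets it was 0.030 for Cd86 and 0.076 for Tgfbr1, and without neuron-rich nuclei 0.0093 and 0.077. With the gate of 20 it was 0.0199 for Serpine2 and 0.068 for Tgfbr1, as a mean over nuclei 0.027 for Cd86 and 0.013 for Tgfbr1, and in the depth window 0.038 for Serpine2 and 0.13 for Cd86. A further 133 values changed sign from an interval that covered 0, of which 18 were without Scrublet doublets, 19 without neuron-rich nuclei, 18 with the gate of 20 and 19 in the depth window. Without Scrublet doublets the ratio of PZKO over PS19 was 0.16 for Acaca, 0.35 for Lpcat2, 0.32 for Cd86 and 0.24 for H2-K1, and without neuron-rich nuclei it was 0.14, 0.32, 0.24 and 0.19. Apart from the fewer or more genes or nuclei that an alternative holds by construction, the cause was not tested.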
